A study of Mus musculus with 2 samples.

Results

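The colony-stimulating factors, their relatives and their receptors were followed through single-cell RNA sequencing of mouse abdominal aorta. The group holds 10 of the 33696 genes listed in the count tables, chosen by symbol and not by any measured value: 5 secreted factors (*Csf1*, *Csf2*, *Csf3*, *Il34* and *Flt3l*) and 5 receptor genes (*Csf1r*, *Csf2ra*, *Csf2rb*, *Csf3r* and *Flt3*). All 10 were counted in both libraries. The comparison asks which stromal, endothelial and immune cells of the wall made the factors and which leukocytes carried the receptors. Tissue came from male C57BL/6J mice of 5 months, either given normal saline (Control) or infused with angiotensin II at 1500 ng/kg/min by minipump and given drinking water with 0.9% NaCl and 0.2% KCl (AngII+HS), each for 28 days. The mice carried no engineered allele. Each condition gave 1 droplet library (10x Genomics 3' chemistry), in which a unique molecular identifier (UMI) marks each captured molecule. The design text speaks of 5 mice pooled per library, whereas the extraction protocol speaks of suprarenal aortas from 1 Control mouse and 2 AngII+HS mice.

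After filtering and doublet removal, 10269 Control cells held 75294050 UMIs (median 7274 per cell) and 19734 AngII+HS cells held 80581691 UMIs (median 3065.5 per cell). Since each condition is a single library, the conditions could not be tested against each other, and neither mouse-to-mouse nor library-to-library spread could be estimated. Levels are a gene's UMIs over all UMIs of a type in a library, scaled to a total of 1000000 (CPM). The 95% intervals given with them are exact Poisson intervals, and those of log2 ratios (AngII+HS over Control) are exact binomial intervals. They cover counting error only, even where the UMIs came from few cells. Shares of cells with a UMI were computed as counted and again after thinning each cell to 1000 UMIs, since cells of different depth are otherwise not comparable. Each library came with a barcode list as long as the matrix of the other, so the lists served only to count shared barcodes. The matrices themselves are named for the condition of their own library, and the directions below follow the labels. The lists have 67 barcodes in common.

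These proteins control how many myeloid cells a tissue holds. CSF1 (M-CSF) and IL-34 are alternative ligands of CSF1R, the receptor tyrosine kinase on which monocytes and macrophages depend. CSF2 (GM-CSF) binds a receptor made of the specific alpha chain CSF2RA and the signalling beta chain CSF2RB, which the IL-3 and IL-5 receptors share. CSF3 (G-CSF) acts through CSF3R on neutrophils and their precursors, and FLT3 ligand acts through FLT3 on dendritic cell and lymphoid precursors. In vessels, fibroblasts and endothelium are known sources of these factors.

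Cell types were rebuilt by clustering without the 10 genes, and a name such as macrophage below means a macrophage-like cluster. Fibroblasts numbered 1920 in the Control and 4194 in the AngII+HS library, vascular smooth muscle cells (VSMCs) 5461 and 890, vascular endothelial cells (VECs) 838 and 1204, lymphatic endothelial cells (LECs) 138 and 156, and Schwann-like cells 149 and 449. Macrophages numbered 501 and 4534, dendritic cells (DCs) 31 and 491, neutrophils 99 and 4658, T cells 130 and 1100, and B cells 100 and 997. The T cell cluster also took in cells like natural killer (NK) cells and type 2 innate lymphoid cells. Values for Control neutrophils and DCs therefore rest on 99 and 31 cells. An unnamed mural cluster led by *Pln* and *Nrip2*, whose leading genes hold smooth muscle and pericyte markers alike, had 169 and 216 cells. A cluster led by hemoglobin genes (39 and 114 cells) carried macrophage transcripts too and is not read as a cell type.

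All 10 members are protein-coding. On the GRCm39 assembly with GENCODE vM39, *Csf1* lies at chr3:107648364-107667806, *Csf2* at chr11:54138097-54140493, *Csf3* at chr11:98592089-98594458, *Il34* at chr8:111423928-111532584 and *Flt3l* at chr7:44779212-44785875. Among the receptors, *Csf2ra* lies at chr19:61212395-61216892, *Csf2rb* at chr15:78209952-78238047, *Csf3r* at chr4:125918262-125938236 and *Flt3* at chr5:147267551-147337483. *Csf2rb* has a near-identical neighbour, *Csf2rb2*, at chr15:78166707-78189921, so the split of reads between the pair is uncertain. *Flt3l* shares exon bases with the same-strand model *Gm45713*, which is not in the gene list of the files.

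PU.1, the ETS-family factor that drives much of myeloid gene expression, binds sites with the core GAGGAA, so the upstream sequences of the members were read for these letters. RefSeq's promoter table (GRCm38.p6) held 6 of the 10 members (*Csf1*, *Csf2*, *Flt3l*, *Csf2ra*, *Csf3r* and *Flt3*). In the 250 bases before the start, on both strands, GAGGAA occurred in 7639 of 32851 promoters (23.3%). It occurred 2 times, without overlap, in *Csf2ra* and 1 time in *Csf3r*, the receptor genes of GM-CSF and G-CSF, and 0 times in the other 4. With only 6 promoters read, these matches lie near the share over all promoters. Only the matching windows are shown, 5′ to 3′ on the strand of the gene, at chr19:61228419-61228668 on the minus strand and chr4:126024409-126024658 on the plus strand of GRCm38.p6. Capitals mark the matches, which are letters and not shown to be binding sites.
Csf2ra: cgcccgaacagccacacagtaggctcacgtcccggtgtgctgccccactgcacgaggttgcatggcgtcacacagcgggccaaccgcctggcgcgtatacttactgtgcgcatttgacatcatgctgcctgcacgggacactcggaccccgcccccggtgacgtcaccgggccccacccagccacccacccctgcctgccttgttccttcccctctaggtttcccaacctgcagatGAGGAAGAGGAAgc
Csf3r: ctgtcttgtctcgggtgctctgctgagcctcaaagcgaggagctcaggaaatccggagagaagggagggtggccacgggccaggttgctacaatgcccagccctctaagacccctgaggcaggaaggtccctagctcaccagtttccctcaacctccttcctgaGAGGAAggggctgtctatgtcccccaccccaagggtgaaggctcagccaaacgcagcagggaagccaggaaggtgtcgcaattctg

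*Csf1* was found across the stroma and in neutrophils of both libraries. In fibroblasts its level was 568 CPM in the Control (interval 553 to 584, 5142 UMIs) and 261 CPM in the AngII+HS library (255 to 267, 7044 UMIs), a log2 ratio of -1.12 (-1.18 to -1.07). In neutrophils it was 206 CPM (156 to 268, 56 UMIs) and 776 CPM (754 to 798, 4823 UMIs), a log2 ratio of 1.91 (1.53 to 2.32). Thus fibroblasts stood highest in the Control library and neutrophils in the AngII+HS library, and in both cell types the intervals of the libraries lay far apart. Counted per cell the AngII+HS order was the other way: 1.68 UMIs per fibroblast (2.68 in the Control) against 1.04 per neutrophil (0.566 in the Control), since neutrophils held few UMIs in all.

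The other stromal cells followed at lower *Csf1* levels. VECs held 171 CPM (159 to 183) and 132 CPM (123 to 141), a log2 ratio of -0.37 (-0.52 to -0.23), and VSMCs 75.2 CPM (72.9 to 77.5) and 54.2 CPM (48.7 to 60.1), a ratio of -0.47 (-0.63 to -0.32). The VSMC ratio is not stable: it was 0.11 when no doublets were removed, a setting that also left further clusters with VSMC markers unnamed. LECs held 191 CPM (167 to 217) and 98.5 CPM (78.6 to 122), but in the Control 10 cells carried 69.5% of the 236 UMIs and 1 cell carried 65. VECs and LECs of the Control did not differ beyond their intervals, nor did Control neutrophils from either. Schwann-like cells, the glia of peripheral nerves, went from 36.1 CPM (17 UMIs) to 88.0 CPM (109 UMIs), a log2 ratio of 1.28 (0.54 to 2.12). Macrophages, which consume CSF1, held 18.5 and 25.5 CPM, and B cells, a type expected to lack *Csf1*, held 2.94 CPM (1 UMI) and 10.5 CPM (23 UMIs).

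**Figure D1:**
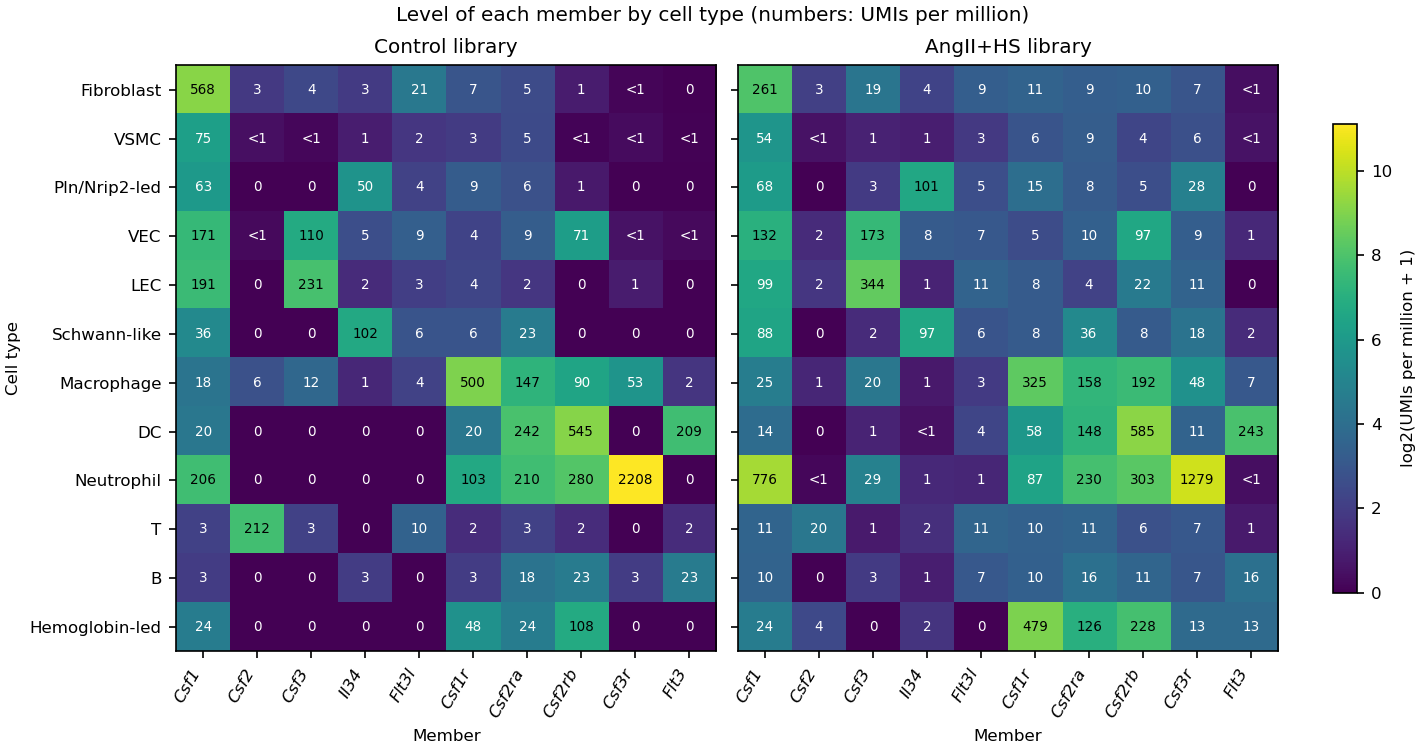
Level of the 10 members (columns) in 12 cell clusters (rows) of the Control library (left) and the AngII+HS library (right). Colour is log2 of CPM plus 1, and the printed numbers are CPM. *Csf1* is brightest in Control fibroblasts (568) and AngII+HS neutrophils (776), *Csf3* in VECs and LECs, and *Csf3r* in neutrophils of both libraries.

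The neutrophil *Csf1* was set against RNA from other cells. Neutrophils also carried more *Col1a1*, a fibroblast collagen, in the AngII+HS library (58.9 and 419 CPM). If their *Csf1* had come with *Col1a1* from fibroblasts, 47.6 of the 4823 UMIs would be accounted for, since *Csf1* made 18.3 UMIs per 1000 *Col1a1* UMIs in AngII+HS fibroblasts but 1850 in the neutrophils. For VSMCs the same reckoning gave 173 of the 351 AngII+HS UMIs. In the Control it gave 5736 against 4088 UMIs seen in VSMCs, with 139 *Csf1* UMIs per 1000 *Col1a1* UMIs there and 195 in fibroblasts. VSMCs are known to make collagen themselves, so this is an upper limit. *Dcn*, another fibroblast transcript, had 88662 and 231016 UMIs in Control and AngII+HS fibroblasts but 984 and 595 in VSMCs. *Csf1* had 5142 and 7044 UMIs in those fibroblasts and 4088 and 351 in the VSMCs. How much of the VSMC *Csf1* came from fibroblasts was not tested. In Schwann-like cells the *Col1a1* reckoning gave 16.8 of 17 Control and 23.1 of 109 AngII+HS *Csf1* UMIs, beside 13 and 138 *Dcn* UMIs there. After thinning, 39.5% of AngII+HS neutrophils (37.9 to 41.0) held a *Csf1* UMI against 10.3% of Control neutrophils (5.06 to 18.1), with 847 shallower AngII+HS cells left out, and the shares as counted were 43.3% and 21.2%. In B cells the thinned shares were 0% (0 of 98 cells) in the Control and 1.15% in the AngII+HS library, and as counted 1.0% and 2.11%. The median depth was 1266 UMIs in AngII+HS neutrophils and 1986 in AngII+HS B cells. In fibroblasts the thinned shares were 31.1% (29.0 to 33.3) in the Control and 20.4% (19.2 to 21.6) in the AngII+HS library, and as counted 59.2% and 55.7%.

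Within fibroblasts, *Csf1* was uneven. The highest level in both libraries belonged to a Pi16-like subcluster led by *Cxcl13* and *Smpd3* (283 and 256 cells), at 1032 and 828 CPM, which alone gave 1989 of the 5142 Control fibroblast UMIs. The lowest belonged to a subcluster with *Hhip* among its leading genes (224 and 208 cells), at 118 and 96.0 CPM. Between them, subclusters led by *Sfrp4* and *Col6a5* and by *Sfrp2* and *Gm26771* went from 744 to 274 CPM and from 633 to 304 CPM, log2 ratios of -1.44 (-1.59 to -1.29) and -1.06 (-1.21 to -0.90). The *Cxcl13* subcluster moved less, with a ratio of -0.32 (-0.43 to -0.21). *Csf1* was therefore lower in the AngII+HS library in 8 of 8 subclusters with at least 20 Control cells, though for the *Hhip* and *Notch3* subclusters the intervals of the ratio include 0. These 8 share the same libraries and scaling, so they do not repeat the comparison. All fibroblast genes tested had a median log2 ratio of -0.14, and scaling by edgeR's TMM factors raised every fibroblast ratio by 0.23. An unnamed shallow cluster led by *Igfbp6* and *Cst3*, with fibroblast markers, is not among these 8. Its *Csf1* was 200 CPM (169 to 236) in the Control and 210 CPM (184 to 239) in the AngII+HS library, with overlapping intervals. Postn-like fibroblasts, almost absent from the Control, were among the low *Csf1* cells of the AngII+HS library: 213 CPM in the subcluster led by *Col11a1* (20 and 749 cells) and 166 CPM in that led by *Mmp13* and *Saa3* (1 and 387 cells).

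Within AngII+HS neutrophils, *Csf1* was 487 CPM in the Retnlg-like subcluster led by *Wfdc17* and *Ifitm1* (1414 cells), and the 5 other subclusters of over 200 cells lay between 777 and 969 CPM. The 99 Control neutrophils formed a subcluster of their own, led by *Ngp* and *Ly6g* and holding 1 AngII+HS cell, so *Csf1* in neutrophils could not be compared between libraries within a subcluster. Among VECs, *Csf1* went from 189 to 85.1 CPM in venous-like cells, a log2 ratio of -1.15 (-1.46 to -0.84). It was 175 and 194 CPM in arterial-like cells, a ratio of 0.15 (-0.05 to 0.34), and 126 and 115 CPM in capillary-like cells, a ratio of -0.13 (-0.52 to 0.26). The capillary-like subclusters led by *Btnl9* and *Rbp7* and by *Inhbb* and *Hilpda* went from 16.2% to 20.6% and from 1.07% to 16.4% of VECs, and the part of this shift in the pooled VEC value was not tested.

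*Il34*, the other CSF1R ligand, stood out in few cell types. Schwann-like cells held 102 CPM (75.2 to 135, 48 UMIs) in the Control and 96.8 CPM (80.3 to 116, 120 UMIs) in the AngII+HS library, a log2 ratio of -0.07 (-0.57 to 0.44). The *Pln*/*Nrip2*-led mural cluster held 50.4 CPM (39.4 to 63.6, 71 UMIs) and 101 CPM (83.1 to 121, 112 UMIs), a ratio of 1.0 (0.56 to 1.45). Schwann-like cells thus stood above the mural cluster in the Control and level with it in the AngII+HS library. Thinned shares of cells with an *Il34* UMI were 11.3% and 8.18% in Schwann-like and 4.14% and 9.26% in mural cells, and 0% in B cells of both libraries (0 of 98 and 0 of 958). As counted, the shares were 26.8% and 18.3%, 18.3% and 31.0%, and 1.0% and 0.10%. VECs held only 5.31 and 8.24 CPM, and 17 of their 23 Control and 37 of their 51 AngII+HS *Il34* UMIs lay in a subcluster of 11 and 28 cells led by the mural genes *Rgs4* and *Notch3*, at 129 and 134 CPM. B cells held 2.94 and 0.909 CPM, on 1 and 2 UMIs. VSMCs (0.865 and 0.926 CPM) did not differ from them beyond counting error. Fibroblasts held 2.65 CPM in the Control and 3.74 CPM (3.04 to 4.54, 101 UMIs) in the AngII+HS library, where the value lay above that of B cells but the interval overlapped theirs (0.110 to 3.29).

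*Csf3* was highest in the endothelial cells of both libraries. LECs held 231 CPM (205 to 260, 286 UMIs) in the Control and 344 CPM (305 to 385, 293 UMIs) in the AngII+HS library, a log2 ratio of 0.57 (0.33 to 0.81). VECs held 110 CPM (100 to 120, 477 UMIs) and 173 CPM (162 to 183, 1068 UMIs), a ratio of 0.65 (0.49 to 0.81). LECs stood above VECs in both libraries, and both types were higher in the AngII+HS library beyond counting error. The LEC value rests on 26 of 138 and 33 of 156 cells with a UMI, of which 10 carried 82.9% and 71.3% of the UMIs. The LEC ratio turned to -0.91 when double the doublets were removed and to -0.14 counted per cell. The cells that should lack *Csf3*, B cells, held 0 UMIs in Control and 6 UMIs (2.73 CPM) in AngII+HS.

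Most *Csf3* UMIs of VECs lay in venous-like cells. The subcluster led by *Mctp1* and *Tll1* (93 and 248 cells) gave 437 of 477 VEC UMIs in Control and 912 of 1068 in AngII+HS, at 735 and 459 CPM, a log2 ratio of -0.68 (-0.85 to -0.51). The pooled VEC ratio had the opposite sign, while this subcluster made 11.1% of Control and 20.6% of AngII+HS VECs. Outside it, *Csf3* was 10.5 and 63.4 CPM in the arterial-like subcluster led by *Cish* and *Sdc4*, a ratio of 2.60 (1.65 to 3.68), and 11.1 and 15.1 CPM in the capillary-like subcluster led by *Btnl9* and *Rbp7*. Thinned shares of VECs with a *Csf3* UMI were 5.03% and 6.95%, with overlapping intervals, against 8.71% and 14.9% as counted, and in B cells 0% and 0.313% thinned against 0% and 0.602% as counted.

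Fibroblasts, macrophages and neutrophils held higher *Csf3* levels in the AngII+HS library. Fibroblasts went from 4.31 CPM (39 UMIs) to 18.7 CPM (505 UMIs), a log2 ratio of 2.12 (1.65 to 2.63), and 228 of the 505 UMIs lay in the Postn-like subcluster led by *Mmp13* and *Saa3*, at 51.0 CPM. Macrophages went from 12.2 to 20.3 CPM, a ratio of 0.74 (0.18 to 1.36), with 250 of 407 AngII+HS UMIs in the subcluster led by *Cxcl3* and *Arg1*. That subcluster held no Control cells, and under other processing settings the macrophage ratio ranged from 0.10 to 1.25. Monocyte-like cells held 42.6 and 43.3 CPM, no difference beyond counting error. Neutrophils, the target cells of CSF3, held 0 UMIs in the Control (at most 13.6 CPM by the interval) and 179 UMIs (28.8 CPM) in the AngII+HS library. The AngII+HS level thus lay above what 0 Control counts allow.

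*Csf2* came from a handful of cells. In the T cell cluster it was 212 CPM (177 to 253, 126 UMIs) in the Control and 20.4 CPM (15.4 to 26.5, 56 UMIs) in the AngII+HS library. All 126 Control and 54 of the 56 AngII+HS UMIs lay in a subcluster like type 2 innate lymphoid cells (ILC2) led by *Il5* and *Stxbp6*, with 18 and 43 cells, of which 11 and 19 held a UMI. There the level was 1825 and 483 CPM, a log2 ratio of -1.92 (-2.41 to -1.45). The ratio rests on very few cells, since 10 cells held 99.2% and 83.3% of these UMIs and the highest single cell held 34 and 15. In the whole T cell cluster the ratio was -3.38 (-3.86 to -2.91), where ILC2-like cells made up 13.8% in the Control and 3.91% in the AngII+HS library. The CD4-like T cells held 2 AngII+HS UMIs, and the CD8-like, gamma-delta-like and NK-like subclusters held 0 in both libraries. Fibroblasts carried 23 and 90 *Csf2* UMIs (2.54 and 3.33 CPM), the latter in 34 cells of which 10 held 67.8%. B cells held 0 UMIs in both, which allows up to 8.81 CPM in the Control and 1.36 CPM in the AngII+HS library by the floor of 3 counts, so the Control B cells give no background as low as the fibroblast level.

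*Flt3l* was low and broad. Fibroblasts held 20.7 CPM (17.8 to 23.8, 187 UMIs) in the Control and 8.88 CPM (7.79 to 10.1, 240 UMIs) in the AngII+HS library, a log2 ratio of -1.22 (-1.50 to -0.94). Their highest subcluster, with *Hhip* among its leading genes, was the lowest for *Csf1*, at 41.7 and 24.0 CPM of *Flt3l*. T cells, a known source, held 10.1 and 11.3 CPM and VECs 9.23 and 7.27 CPM, with intervals that overlap between libraries and between these types. The unnamed shallow cluster led by *Igfbp6* and *Cst3*, with fibroblast markers, held 29.0 and 22.1 CPM. The thinned share of fibroblasts with a *Flt3l* UMI was 2.61% (1.93 to 3.43) and 0.916% (0.649 to 1.25), against 8.91% and 5.36% as counted. No cell type is known to lack *Flt3l*, so no background share is given.

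**Figure D2:**
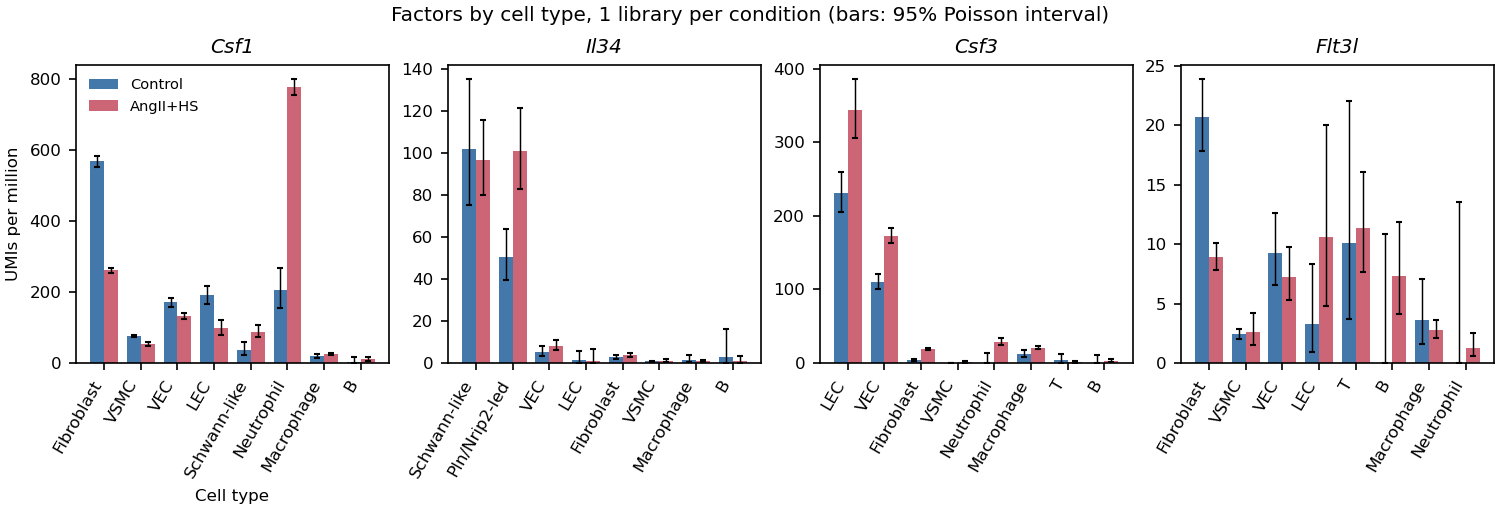
Levels of *Csf1*, *Il34*, *Csf3* and *Flt3l* (CPM, vertical axes starting at 0) in selected cell types of the Control (blue) and AngII+HS (red) libraries, 1 library each. Bars are levels and lines their 95% Poisson intervals, as for *Csf1* in neutrophils (206 and 776) and fibroblasts (568 and 261).

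*Csf1r*, the receptor for both CSF1 and IL-34, was highest, among named cell types, in macrophages. Its level there was 500 CPM (471 to 531, 1112 UMIs) in the Control and 325 CPM (317 to 333, 6501 UMIs) in the AngII+HS library, a log2 ratio of -0.62 (-0.72 to -0.53). By subcluster the picture was less uniform. Resident-like macrophages, led by *Cd209f* and *Fcna*, held 572 and 588 CPM, a ratio of 0.04 (-0.17 to 0.25), and C1q-like macrophages led by *Oasl1* and *Ifih1* held 573 and 459 CPM, a ratio of -0.32 (-0.46 to -0.18). The lowest macrophage levels were in cells of the AngII+HS library alone: 228 CPM in the subcluster led by *Cxcl3* and *Arg1* (1359 cells) and 196 CPM in Arg1-like macrophages led by *Ppbp* and *Hmox1* (452 cells). Monocyte-like cells lay between, at 313 and 293 CPM. Both low subclusters held 0 Control cells, and within the resident-like cells the libraries did not differ beyond counting error.

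Outside macrophages *Csf1r* was lower. Neutrophils held 103 CPM (68.5 to 149) and 86.7 CPM (79.6 to 94.4). If the AngII+HS value had come with *C1qa* from macrophages, 69.7 of 539 UMIs would be accounted for. DCs held 20.2 CPM (3 UMIs) and 58.3 CPM (148 UMIs), and cDC1-like cells 0 UMIs in either library. Thinned shares of macrophages with a *Csf1r* UMI were 40.8% (36.3 to 45.5) and 27.8% (26.5 to 29.1), against 75.0% and 65.1% as counted. In VSMCs, taken as the receptor-negative background, they were 0.297% and 0.714%, against 2.36% and 3.26% as counted, at median depths of 9699 and 6962 UMIs. The hemoglobin-led cluster of the AngII+HS library held 479 CPM, from 37 of 114 cells.

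*Csf2ra*, the GM-CSF-specific chain, was found across the myeloid cells. Neutrophils held 210 CPM (159 to 272) and 230 CPM (218 to 242), and macrophages 147 CPM (132 to 164) and 158 CPM (153 to 164), log2 ratios of 0.13 (-0.25 to 0.54) and 0.11 (-0.06 to 0.27). In both cell types the libraries did not differ beyond counting error, and neutrophils stood above macrophages in the AngII+HS library, while in the Control their intervals overlapped. DCs held 242 CPM (170 to 335, 36 UMIs) and 148 CPM (134 to 164), a ratio of -0.71 (-1.21 to -0.17). Thinned shares with a *Csf2ra* UMI were 15.9% and 14.5% in macrophages, 16.5% and 19.6% in neutrophils, and 0.538% and 0.595% in VSMCs. As counted they were 41.1% and 45.2%, 47.5% and 24.9%, and 4.41% and 5.62%. *C1qa* at the macrophage ratio would account for 6.31 of 254 Control and 12.3 of 56 AngII+HS *Csf2ra* UMIs of VSMCs. Whether VSMCs make the transcript themselves was not tested, so their share may not be a background free of it. Schwann-like cells held 23.4 and 36.3 CPM.

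*Csf2rb*, the shared beta chain, differed between myeloid subsets. DCs stood highest, at 545 CPM (433 to 677) in the Control and 585 CPM (556 to 616) in the AngII+HS library, a log2 ratio of 0.10 (-0.22 to 0.44), followed by neutrophils at 280 CPM (220 to 350) and 303 CPM (289 to 317), a ratio of 0.11 (-0.22 to 0.47). Neither type differed between the libraries beyond counting error. Macrophages went from 90.0 CPM (78.0 to 103, 200 UMIs) to 192 CPM (186 to 198, 3846 UMIs), a ratio of 1.09 (0.89 to 1.31). Of the Control UMIs, 144 lay in the monocyte-like subcluster of 41 cells, which held 438 CPM against 447 in the AngII+HS library. Most of these cells belong to the Arg1-led cluster, which was 7.98% of the macrophages in the Control and 45.6% in the AngII+HS library. Where other settings left that cluster out of the macrophages the ratio was 2.12 to 2.45.

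Macrophages that lacked the monocyte pattern were low in *Csf2rb* in the Control and higher in the AngII+HS library. C1q-like macrophages (*Oasl1*/*Ifih1*) went from 16.8 to 63.3 CPM, a log2 ratio of 1.91 (1.21 to 2.70), resident-like macrophages from 13.8 to 39.3 CPM, a ratio of 1.51 (0.33 to 2.92), and cells led by *Gpnmb* and *Mmp12* from 18.1 to 117 CPM, a ratio of 2.69 (1.13 to 4.98). Among macrophage subclusters of at least 20 cells in a library, resident-like cells had the lowest *Csf2rb* value in both libraries, while their *Csf1r* was above that of every AngII+HS subcluster except 25 cells led by *Marco* (813 CPM). In the Control the *Csf2rb* levels of 13.8, 16.8 and 18.1 CPM lay close together, and no order among them is read. Among AngII+HS DC-like subclusters, cDC1-like cells held 858 CPM (64 cells), cDC2-like cells 517 CPM (471 cells) and mature DC-like cells 291 CPM (63 cells). These came from macrophages and DCs clustered together and hold more cells than the 491 named DCs, so some were counted as macrophages. Thinned shares of macrophages with a *Csf2rb* UMI were 5.08% and 15.4%, against 14% and 42.5% as counted, and in VSMCs 0.0371% and 0.357%, against 0.0732% and 2.36%.

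VECs carried *Csf2rb* too, and held 44.0% of all its UMIs in the Control library against 7.17% in the AngII+HS library. Their level was 70.6 CPM (63.0 to 79.0, 306 UMIs) and 96.6 CPM (89.0 to 105, 598 UMIs), a log2 ratio of 0.45 (0.25 to 0.66). It lay in capillary-like cells (146 and 172 CPM) and venous-like cells (219 and 123 CPM) and hardly in arterial-like cells (3.78 and 11.7 CPM). In venous-like cells the ratio was -0.83 (-1.10 to -0.56), opposite in sign to that of all VECs. LECs held 0 UMIs in the Control (at most 2.98 CPM by the interval) and 19 UMIs (22.3 CPM) in the AngII+HS library. In VECs *S100a8*, a neutrophil transcript, went from 3.92 to 70.8 CPM, and at the neutrophil ratio of these genes it would account for 8.41 of the 598 AngII+HS *Csf2rb* UMIs. *Csf2rb2* was found in the same cells, at 42.5 and 52.2 CPM in VECs, 60.5 and 128 CPM in DCs and 19.4 and 72.9 CPM in macrophages.

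*Csf3r* marked neutrophils above every other cell type. The level was 2208 CPM (2035 to 2392, 600 UMIs) in the 99 Control cells and 1279 CPM (1251 to 1308, 7951 UMIs) in the AngII+HS cells, a log2 ratio of -0.79 (-0.91 to -0.67). Counted per cell it was 6.06 and 1.71 UMIs, a ratio of -1.83. Among the 6 AngII+HS subclusters of over 200 cells it lay between 976 and 1501 CPM, so all were below the Control neutrophils. After thinning, 88.7% (80.6 to 94.2) and 67.2% (65.7 to 68.7) of neutrophils held a *Csf3r* UMI, against 99.0% and 74.4% as counted, and in VSMCs 0.0185% and 0.476%, against 0.201% and 3.03%. *S100a8* was lower too, at 42782 and 15780 CPM. Macrophages held 53.1 and 47.6 CPM, a ratio of -0.16 (-0.44 to 0.13), of which *S100a8* at the neutrophil ratio would account for 154 of 953 AngII+HS UMIs.

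Low *Csf3r* also appeared in stromal and endothelial cells of the AngII+HS library. Fibroblasts went from 0.110 to 6.51 CPM, VECs from 0.462 to 9.05 CPM and VSMCs from 0.239 to 5.56 CPM. *S100a8* moved with it, from 3.09 to 67.6 CPM, from 3.92 to 70.8 CPM and from 1.89 to 49.9 CPM. *Csf3r* UMIs per 1000 *S100a8* UMIs were 96.3 in fibroblasts, 128 in VECs and 111 in VSMCs, against 81.1 in the neutrophils themselves. They were 122 in Schwann-like cells, 164 in LECs and 209 in the *Pln*/*Nrip2*-led mural cluster, on 22, 9 and 31 *Csf3r* UMIs.

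*Flt3* marked dendritic cells. DCs held 209 CPM (142 to 296, 31 UMIs) in the Control and 243 CPM (224 to 263, 617 UMIs) in the AngII+HS library, a log2 ratio of 0.22 (-0.30 to 0.79), no difference beyond counting error. In the AngII+HS library mature DC-like cells, led by *Fscn1* and *Ccl22*, held 583 CPM (63 cells), cDC1-like cells 392 CPM (64 cells) and cDC2-like cells 129 CPM (471 cells). The order differs from that of *Csf2rb*, where mature cells were lowest. B cells held 23.5 CPM (8 UMIs) and 16.4 CPM (36 UMIs), and macrophages 2.25 and 7.40 CPM. These macrophages include some cells of the DC-like subclusters. Thinned shares of DCs with a *Flt3* UMI were 22.7% and 20.8%, against 38.7% and 54.4% as counted, and in VSMCs 0% in both, against 0.0549% and 0.337%.

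**Figure D3:**
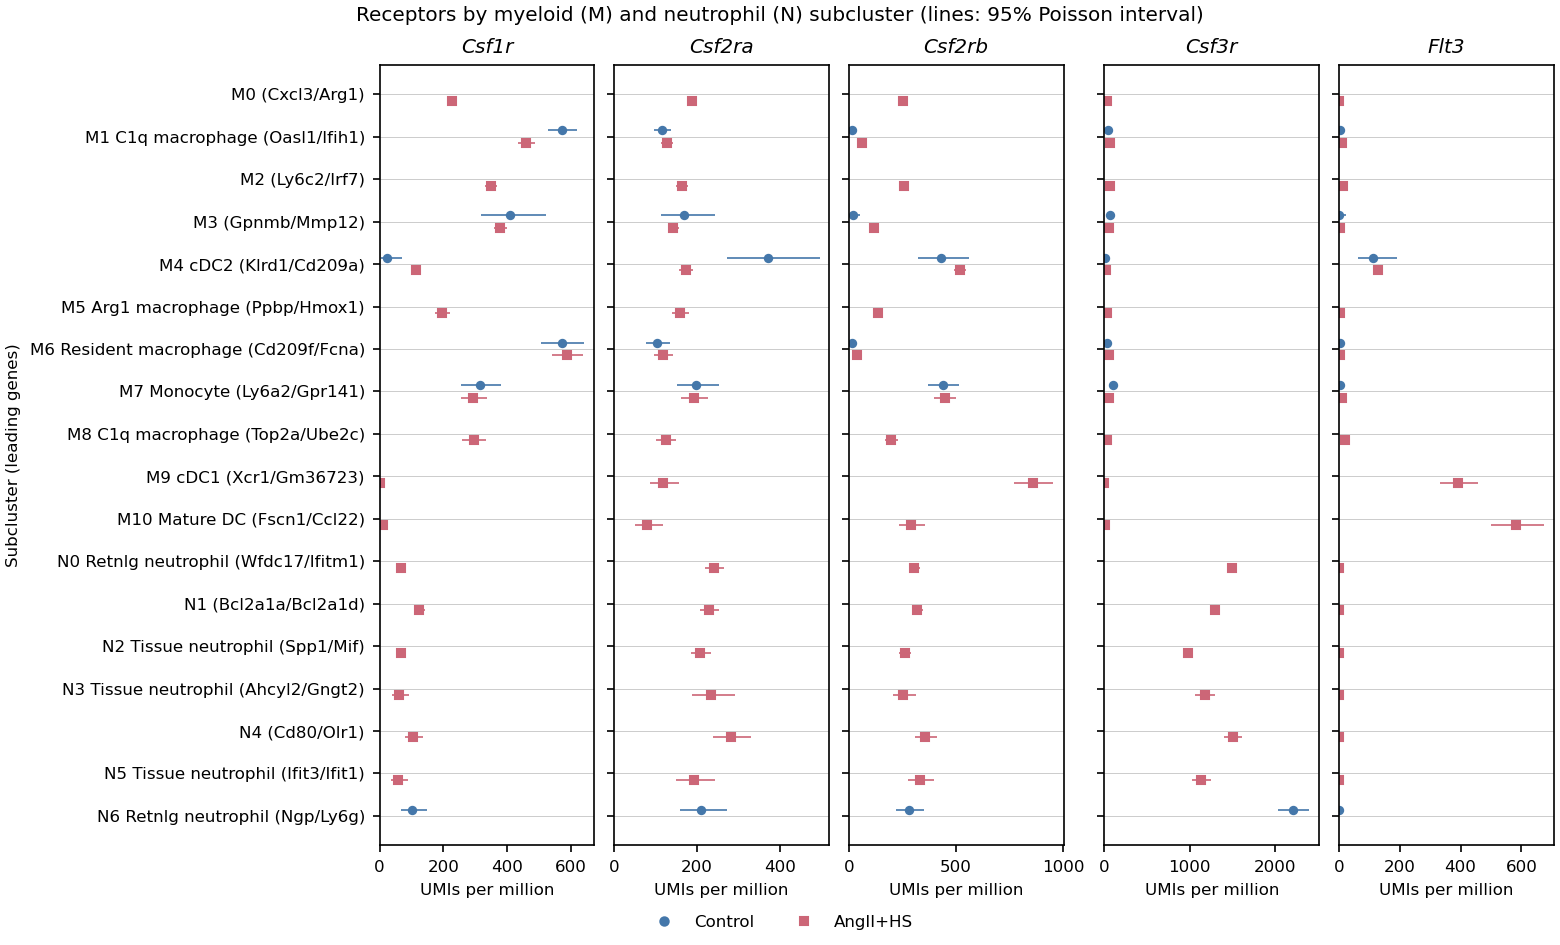
Levels of the 5 receptor genes (CPM, horizontal axes starting at 0) in subclusters of macrophages and dendritic cells (M) and of neutrophils (N), each named by its leading genes. Circles are the Control and squares the AngII+HS library, lines are 95% Poisson intervals, and points are drawn for at least 20 cells. *Csf1r* is at 572 and 588 in resident-like macrophages, and the highest values of *Csf2rb* are in cDC1-like cells (858), of *Csf3r* in neutrophils and of *Flt3* in mature DC-like cells (583).

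Detection of 2 members in one cell was counted after thinning. In AngII+HS macrophages 121 of 4373 cells held both *Csf2ra* and *Csf2rb*, where 97.9 would if the genes fell in cells independently. In AngII+HS neutrophils 203 of 3811 cells held both (179 if independent), and in DCs 22 of 480 (22.3 if independent). *Csf1* and its receptor *Csf1r* met in 133 of 3811 AngII+HS neutrophils (125 if independent), and *Csf2rb* and *Csf3r* in 637 (615 if independent). At 1000 UMIs per cell most pairs go undetected, so these counts do not give the share of cells with a complete receptor.

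Where each transcript came from also shifted with the makeup of the libraries. Neutrophils went from 0.964% to 23.6% of cells, macrophages from 4.88% to 23.0% and VSMCs from 53.2% to 4.51%. Fibroblasts held 48.7% and 49.6% of all *Csf1* UMIs, while VSMCs held 38.7% in the Control and neutrophils 34.0% in the AngII+HS library (0.530% in the Control). VECs held 56.7% and 43.0% of *Csf3* UMIs, LECs 34.0% and 11.8%, and fibroblasts 4.63% and 20.4%. For *Csf2*, the T cell cluster, through its ILC2-like cells, went from 68.9% to 27.9% and fibroblasts from 12.6% to 44.8%. For the receptors, macrophages held 79.6% and 82.6% of *Csf1r* UMIs, neutrophils 81.5% and 85.2% of *Csf3r* UMIs, and DCs 63.3% and 71.7% of *Flt3* UMIs. Of *Csf2ra* UMIs, macrophages held 41.3% and 57.1%, neutrophils 7.20% and 25.7%, and VSMCs 32.1% and 1.01%.

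**Figure D4:**
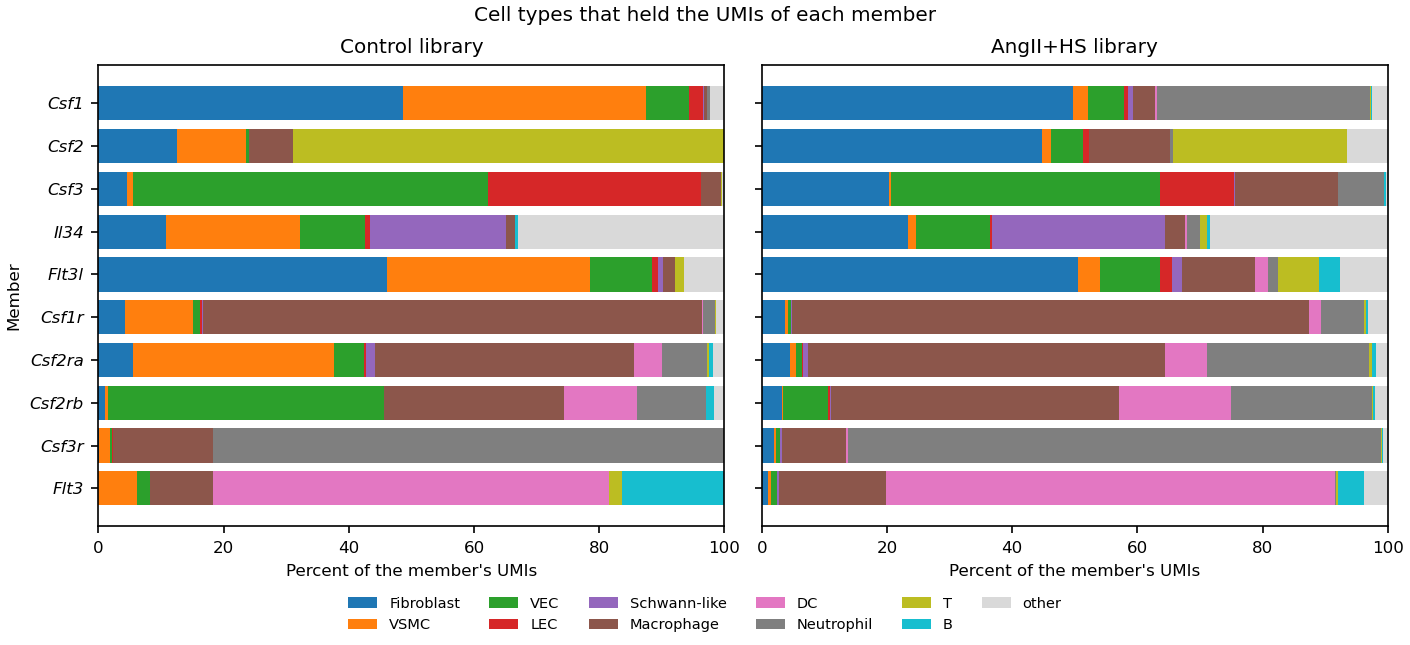
Percent of each member's UMIs (horizontal axes, 0 to 100) held by each cell type in the Control (left) and AngII+HS (right) libraries, in stacked bars by colour. Neutrophils hold 0.530% of *Csf1* UMIs on the left and 34.0% on the right, and VECs 44.0% and 7.17% of *Csf2rb* UMIs.

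Over whole libraries all 10 members were higher in CPM in AngII+HS, the receptors most. *Csf1r* went from 18.6 to 97.7 CPM, *Csf2ra* from 10.5 to 68.9 CPM, *Csf2rb* from 9.23 to 104 CPM, *Csf3r* from 9.78 to 116 CPM and *Flt3* from 0.651 to 10.7 CPM. In such sums more receptor-bearing cells and more receptor RNA per cell cannot be told apart. Within cell types the receptors went different ways. Pooled over subclusters, *Csf1r* was lower in macrophages and *Csf3r* in neutrophils, *Csf2rb* was higher in macrophages, and *Csf2ra* in macrophages and neutrophils and *Flt3* in DCs did not differ beyond counting error. Resident-like macrophages did not differ in *Csf1r* beyond counting error. The 99 Control neutrophils formed a subcluster with only 1 AngII+HS cell, so their *Csf3r* was not compared within a subcluster. *Csf1* went from 140 to 176 CPM, *Csf3* from 11.2 to 30.8 CPM, *Il34* from 2.94 to 5.37 CPM, *Csf2* from 2.43 to 2.49 CPM and *Flt3l* from 5.38 to 5.89 CPM. For *Csf2* and *Flt3l* these intervals overlap.

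**Figure D5:**
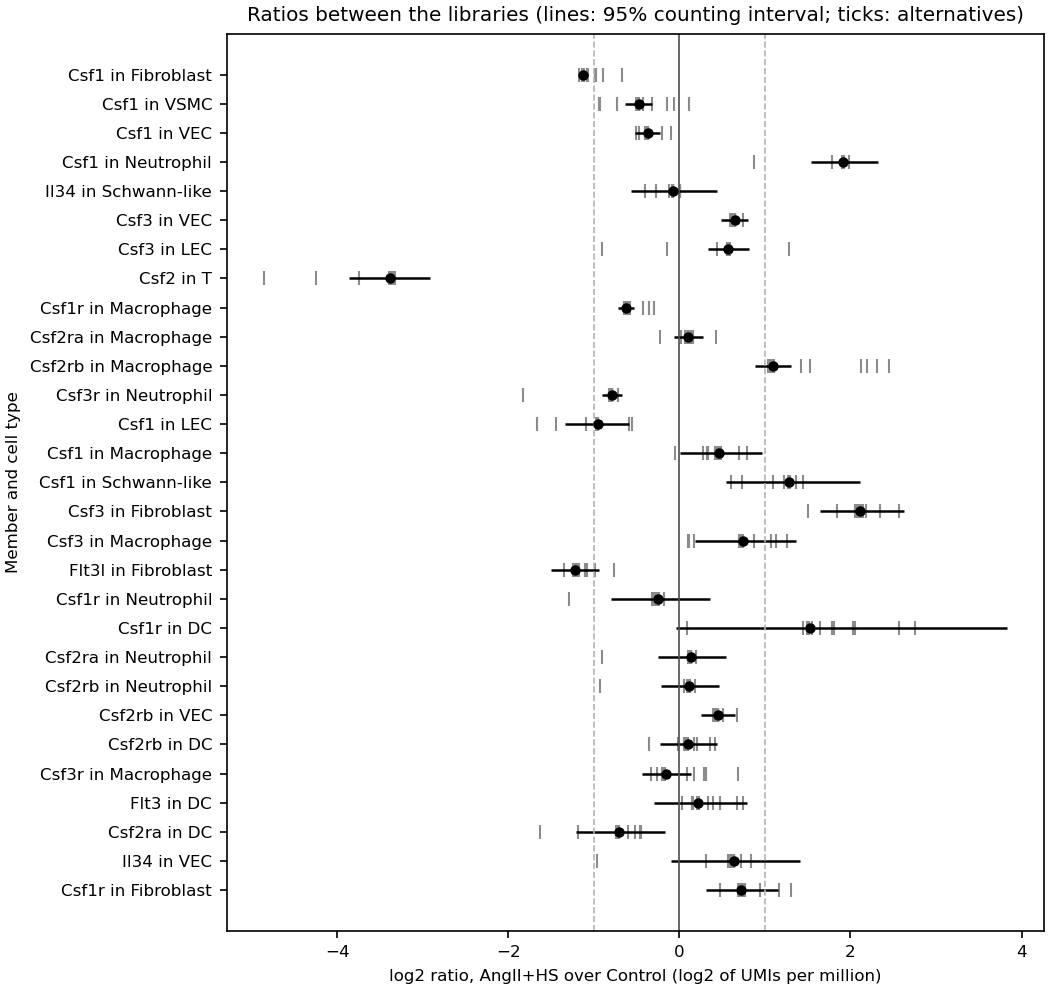
Log2 ratios of 29 member and cell type pairs (AngII+HS over Control, horizontal axis). Points are the values under the main settings, not all of them given in the text. Lines are their 95% counting intervals, grey ticks the values under the other processing settings and dashed lines 2-fold. *Csf1* in neutrophils (1.91) and *Csf3* in fibroblasts (2.12) lie to the right of 0, *Csf1* in fibroblasts (-1.12) and *Csf2* in the T cell cluster with its ILC2-like cells (-3.38) to the left.

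The members were counted past 2-fold beside all genes with at least 50 UMIs in a cell type. In fibroblasts 3 of the 9 members measured (*Csf3*, *Csf2rb* and *Csf3r*) were higher and 2 (*Csf1* and *Flt3l*) lower, where 6.31% of all genes were higher and 6.32% lower. In macrophages 2 of 8 were higher (*Csf2rb* and *Flt3*) and 0 lower, where 9.92% and 13.9% of all genes were. The *Flt3* call rests on 5 Control and 148 AngII+HS UMIs in macrophages. Some macrophages lay in DC-like subclusters, where *Csf2rb* and *Flt3* were high, and their part in these calls was not tested. In neutrophils 2 of 6 were higher (*Csf1* and *Csf3*) and 0 lower, where 29.9% and 10.2% of all genes were, a share close to the background. In fibroblasts *Csf2rb* and *Csf3r* moved with *S100a8*, which at the neutrophil ratios would account for 35.1 of the 263 *Csf2rb* and 148 of the 176 *Csf3r* UMIs of the AngII+HS library. A fibroblast subcluster of 5 Control and 125 AngII+HS cells was led by *Acod1*, *Il1b* and the neutrophil transcripts *S100a9* and *S100a8*. Its part in these UMIs was not tested.

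In the other cell types 0 or 1 member passed 2-fold in a direction. The counts were 1 of 7 in VECs (*Csf3r*, higher; all genes 6.20% higher and 4.39% lower), 1 of 5 in VSMCs (*Csf1r*, higher; 4.20% and 8.59%) and 1 of 4 in DCs (*Csf1r*, higher; 17.4% and 9.51%). In VSMCs, the receptor-negative background above, *C1qa* at the macrophage ratio would account for 25.2 of 41 AngII+HS and 21.5 of 151 Control *Csf1r* UMIs. In DCs the Control interval (4.16 to 59.0 CPM, 3 UMIs) held the AngII+HS value of 58.3 CPM. Schwann-like cells had 1 of 3 (*Csf1*, higher; 4.18% and 1.71%), the T cell cluster with its ILC2-like cells 1 of 1 (*Csf2*, lower; 7.30% and 2.01%) and LECs 0 of 2 (4.96% and 2.99%).

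The relatives of the members, 9 genes of neighbouring ligands and receptors, were read the same way. In fibroblasts 4 of 6 measured were higher (*Csf2rb2*, *Il3ra*, *Kit* and *Sdc1*) and 2 lower (*Kitl* and *Ptprz1*), with a median log2 ratio of 1.31 beside -0.14 for all genes tested. In macrophages 2 of 6 were higher (*Csf2rb2* and *Sdc1*) and 2 lower (*Kitl* and *Ptprz1*), median -0.52 beside -0.07. *Kitl*, the ligand of KIT, went from 57.2 to 20.8 CPM in fibroblasts, from 112 to 28.4 CPM in VSMCs and from 535 to 38.6 CPM in macrophages. It is a leading gene of the C1q-like macrophages led by *Oasl1* and *Ifih1*. These were 44.9% of macrophages and DCs together in the Control and 14.5% in the AngII+HS library. The part of such shifts in the pooled macrophage values was not tested. In VECs 1 of 6 was higher (*Kit*, 6.70 to 51.0 CPM) and 1 lower (*Sdc1*, 60.9 to 24.7 CPM), and in VSMCs 1 of 5 was higher (*Il3ra*) and 1 lower (*Kitl*). *Sdc1* is a leading gene of the arterial-like subcluster led by *Klk10* and *Pi16*. That subcluster went from 8.83% to 2.08% of VECs, and the part of such shifts in the VEC values was not tested. Over all genes, 6.31% were higher and 6.32% lower in fibroblasts, and 9.92% and 13.9% in macrophages. The shares were 6.20% and 4.39% in VECs and 4.20% and 8.59% in VSMCs. *Sdc1*, a syndecan that binds IL-34, went from 40.6 to 128 CPM in fibroblasts and from 2.70 to 46.4 CPM in macrophages.

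Of 18 genes that signal downstream of the receptors, 18 were measured in macrophages, of which 3 were higher, *Cish* and *Tyrobp* among them, and 0 lower, with a median log2 ratio of 0.22 beside -0.07 for all genes. *Cish*, a feedback inhibitor induced by STAT5, went from 9.45 to 24.8 CPM there, but from 158 to 76.9 CPM in VECs and from 17.0 to 5.56 CPM in VSMCs. The part of the shift between macrophage clusters in the macrophage values was not tested. *Cish* also leads an arterial-like subcluster that went from 12.4% to 8.80% of VECs, and its part in the VEC value was not tested. In neutrophils 3 were higher (*Stat5a*, *Socs1* and *Cish*) and 4 lower, with *Stat5b*, *Pik3cd* and *Ptpn6* among them, median -0.01 beside 0.32. Of all genes, 29.9% were higher and 10.2% lower in neutrophils, and 9.92% and 13.9% in macrophages. *Ptpn6*, the phosphatase SHP-1, went from 324 to 119 CPM in neutrophils. In fibroblasts the count was 3 of 18 higher, *Inpp5d* and *Tyrobp* among them, and 1 lower (*Stat5a*), in VECs 2 of 15 higher (*Inpp5d* and *Tyrobp*) and 1 lower (*Cish*), and in VSMCs 3 of 16 higher (*Inpp5d*, *Tyrobp* and *Lyn*) and 3 lower (*Socs1*, *Socs3* and *Cish*). Over all genes, 6.31% were higher and 6.32% lower in fibroblasts, 6.20% and 4.39% in VECs and 4.20% and 8.59% in VSMCs, and the list medians were 0.03 beside -0.14, 0.06 beside 0.05 and -0.18 beside -0.05. *Tyrobp*, a leukocyte adaptor, went from 1.66 to 30.8 CPM in fibroblasts, beside the rise of *S100a8* and of *C1qa* (2.21 to 19.5 CPM), and their part in these counts was not tested. *Socs3* went from 733 to 276 CPM in VSMCs.

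Of 12 myeloid transcription factors, 10 were measured in macrophages, 4 were lower (*Irf4*, *Maf*, *Batf3* and *Klf4*) and 0 higher, with a median log2 ratio of -0.55 beside -0.07 for all genes. Of all macrophage genes, 13.9% were lower and 9.92% higher. *Maf* went from 688 to 285 CPM and *Klf4* from 697 to 253 CPM. The *Arg1*-led cluster went from 7.98% to 45.6% of macrophages, and the part of this shift in these values was not tested. In neutrophils 2 of 7 were higher (*Irf8* and *Maf*) and 1 lower (*Spi1*, which encodes PU.1, 1008 to 474 CPM), median 0.34 beside 0.32, where 29.9% of all genes were higher and 10.2% lower, so the list stood near the background. In the same cells *Csf3r* was lower and *Csf2ra* did not differ beyond counting error. A link between *Spi1* and these receptor levels was not tested.

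Of 8 genes of cytokines known to induce colony-stimulating factors (IL-1, TNF and IL-17) and of their receptors, 7 were measured in neutrophils, with 3 higher (*Il1a*, *Tnf* and *Il1r1*) and 1 lower (*Il17ra*), median log2 ratio 0.72 beside 0.32. *Tnf* went from 622 to 2362 CPM and *Il1a* from 36.8 to 570 CPM there. In macrophages 2 of 7 were higher (*Il1a* and *Il1b*) and 0 lower, median 0.03 beside -0.07, with *Il1b* at 547 and 3309 CPM. The part of the *Arg1*-led cluster, a larger share of AngII+HS macrophages, in these values was not tested. In fibroblasts 3 of 7 were higher (*Il1a*, *Il1b* and *Tnf*), median 0.46 beside -0.14, in VECs 2 of 6 (*Il1b* and *Tnf*), median 0.62 beside 0.05, and in VSMCs 3 of 6 (*Il1b*, *Tnf* and *Tnfrsf1b*), median 1.0 beside -0.05. Over all genes, 29.9% were higher and 10.2% lower in neutrophils, and 9.92% and 13.9% in macrophages. The shares were 6.31% and 6.32% in fibroblasts, 6.20% and 4.39% in VECs and 4.20% and 8.59% in VSMCs. *Il1b* stood at 60.8 CPM in AngII+HS fibroblasts, 62.7 in VECs and 44.5 in VSMCs, against 0.773, 0.693 and 0.552 in the Control, beside the leukocyte transcripts above. *Il1b* is also a leading gene of the fibroblast subcluster led by *Acod1*, whose part in the fibroblast values was not tested.

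Genes with patterns most like each member were found by Pearson's r of log2(CPM + 1) over 25 cell type and library pairs and 14507 genes, as a description without a test, since points of a library share its depth and free RNA. *Csf3r* was most like *Trem1* (r = 0.97), *Pilra* and *Hcar2* (0.97 each), *Csf2ra* most like *Nfam1* (0.96), *Ccr1* (0.94) and *Peds1* (0.93), and *Csf1r* most like *Clec4a2* (0.94), *4930430E12Rik* (0.92) and *Gm40645* (0.91). *Csf2rb* was most like its neighbour *Csf2rb2* (0.89), with *Plbd1* (0.86) and *Clec7a* (0.85), and *Flt3* most like *Kmo* (0.89), *Ciita* and *Syngr2* (0.88 each). Among the factors, *Csf3* was most like the endothelial genes *Adcy4* (0.89) and *Bcl6b* (0.88) and *Unc45b* (0.89), and *Il34* most like *Il1rapl1*, *Map2* (0.89 each) and *Mgat3* (0.88). *Csf1* was much like *1200007C13Rik* (0.87) and *Fam114a1* (0.86), *Csf2* most like *Gzmk* (0.86), *Cd3e* and *Ubash3a* (0.84 each), and *Flt3l* most like *H2az2* (0.86), *Dipk1b* (0.81) and *Mia3* (0.80). For *Csf2* these points pool T cells with the ILC2-like cells that held nearly all *Csf2* UMIs of that cluster. The CD8-like subcluster led by *Gzmk* held no *Csf2* UMIs.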

How the data were processed

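Raw UMI counts per gene and cell barcode were deposited by the authors as Cell Ranger matrices of barcodes called as cells, without normalization. The matrix headers name Cell Ranger 8.0.1 and the labels name mm10 and Seurat 4.0.5, while the paper's methods name other versions and GRCm39, so the build used for counting is not settled. Each matrix was read as the sample that GEO lists it with. A barcode needed 500 UMIs, 200 genes and a mitochondrial share below 20% to be used (11288 of 11448 Control and 24560 of 24804 AngII+HS barcodes). The cells with the highest Scrublet scores (scanpy 1.11.5) were removed as doublets at 0.8% per 1000 cells (1019 and 4826), since DoubletFinder could not be run. Libraries were integrated with Seurat 5.3.0 anchors (2000 variable genes, 30 components) before Louvain clustering (resolution 0.8), and compartments were clustered again (20 components, resolution 0.6), with the members and the pathway genes kept out of the variable genes. A cluster took the name of the marker list with the highest score if 3 or more of its markers were found in 10% of cells or more and its 10 leading genes did not favour another type. Clusters of low depth without their own markers stayed unnamed. This rule was settled after clusters had been seen.

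For levels, the counts of all cells of a type in a library were added up. Ratios needed at least 50 UMIs over both libraries. Each cell was thinned to 1000 UMIs for shares. The scripts were tested on simulated data. Python 3.11.15, numpy 2.4.6, scipy 1.17.1, pandas 2.3.3, matplotlib 3.10.9, R 4.3.3, SeuratObject 5.2.0, Matrix 1.6.5 and edgeR 4.0.16 with limma 3.58.1 (TMM factors only) were used. The members, marker and gene lists were chosen with earlier results of these data known. The text names all 10 members, the 3 genes most like each, the transcripts read as free RNA (*S100a8*, *C1qa*, *Col1a1*, *Dcn*) and list genes past 2-fold, with values where they had at least 200 UMIs in macrophages, neutrophils, fibroblasts, VSMCs or VECs. Some genes that this rule takes in are not reported here. Leading genes of clusters fall outside this rule and were read from the data. The settings varied were doublets (all kept, or double removed), the cell filter (1000 UMIs, 500 genes, 10% mitochondrial), integration (none), resolution (0.4 and 1.2), scaling (no mitochondrial genes, TMM, cells weighted equally, lowest level subtracted as free RNA) and the variable genes (members allowed). Leaving out subclusters led by genes of other types or by low depth, and counting UMIs per cell, were added after the data were seen.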

Additional observations from a re-analysis of the deposited data

Results flagged for a closer look

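The log2 ratio of *Csf1* between the libraries had opposite signs in different cell types. It was 1.91 (1.53 to 2.32) in neutrophils and 1.28 (0.54 to 2.12) in Schwann-like cells, but -1.12 (-1.18 to -1.07) in fibroblasts. The difference between cell types was not tested, since each condition has 1 library. The neutrophil value rests on 99 Control cells and the Schwann-like value on 17 Control UMIs. Of these 17, *Col1a1* at the fibroblast ratio would account for 16.8. *Dcn*, another fibroblast transcript, had only 13 UMIs in these cells, against 88662 in Control fibroblasts, which held 5142 *Csf1* UMIs. The part of fibroblast RNA in the Schwann-like value was not tested.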

How the results depend on the processing

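For 19 of the 29 ratios every alternative kept the direction. Of the 12 that answer a comparison, *Il34* in Schwann-like cells and *Csf3* in VECs did not move beyond their intervals. With no doublets removed, *Csf1* was 0.11 in VSMCs, which reversed its sign, and -0.0925 in VECs, and *Csf2rb* in macrophages was 2.45. With double the doublets removed, *Csf3* in LECs was -0.91, also reversed (52 AngII+HS UMIs were left), *Csf1* was -0.97 in fibroblasts and -0.94 in VSMCs, and *Csf2* in T cells was -4.86. Counted per cell, *Csf3* in LECs was -0.14, reversed again, *Csf1* was -0.67 in fibroblasts, -0.92 in VSMCs and 0.87 in neutrophils, *Csf2* in T cells was -4.25 and *Csf3r* in neutrophils -1.83. Merging gave *Csf1r* -0.35 and *Csf2rb* 2.12 in macrophages. Resolution 0.4 gave *Csf1* -0.98 in fibroblasts, *Csf1r* -0.36 and *Csf2rb* 2.19, and resolution 1.2 gave *Csf1* -1.06 in fibroblasts and -0.15 in VSMCs, *Csf1r* -0.43 and *Csf2rb* 2.31. TMM scaling, which moved all ratios of fibroblasts by 0.23 and of macrophages by 0.32, gave *Csf1* -0.90 in fibroblasts and *Csf1r* -0.30, *Csf2ra* 0.43 and *Csf2rb* 1.42 in macrophages. Equal weight per cell gave *Csf1* -0.98 in fibroblasts and -0.20 in VECs, *Csf3* 1.28 in LECs, *Csf2ra* -0.22 and *Csf2rb* 1.53 in macrophages. Members among the variable genes gave *Csf1* -0.0612 in VSMCs, and subtraction of free RNA -0.73 in VSMCs and -0.0463 in macrophages, the latter reversed from 0.47. The causes were not tested, except that *Csf2rb* in macrophages rose where the *Arg1*-led cluster left that name. VSMC values also cover different cells, since clusters scored highest as VSMC, beside the *Pln*-led one, went unnamed. Such a cluster held 3160 Control and 339 AngII+HS cells with members among the variable genes, and 2872 and 321 at resolution 1.2. With no doublets removed, such clusters held 944 and 127 cells, and 414 and 298. The part of this in the VSMC ratios was not tested. No paired analysis was possible because each condition has 1 library. Counting error is wide where few UMIs were seen, as for *Csf2*, for *Flt3* in Control DCs and for *Csf1* in Control Schwann-like cells.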
